A study of Mus musculus with 13 samples.

Results

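The sites described here are the ESR1 peaks of the Greb1 locus, taken from 12 libraries of chromatin immunoprecipitation sequencing (ChIP-seq) for ESR1, the estrogen receptor alpha. Greb1 (ENSMUSG00000036523.16) lies on the minus strand of mouse chromosome 12, at 16670615 to 16800886 of the mm10 build in the GENCODE vM21 annotation, and the window was its gene body plus 100 kb on each side. Peaks that overlapped by at least 1 bp in any of the 12 lists were joined into sites, which gave 54 sites from 226 peaks in the window, of 228284 sites from 686823 peaks in the whole series. Sites are numbered 1 to 54 in the order of their position on the plus strand. The locus was chosen by its gene and by measured values, namely the presence of a peak, its fold over background and its rank in the list, so differences in these measures are given as a description and no test was applied to them.

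The cells were primary skeletal muscle fibroblasts of Aromhum mice, which carry the human aromatase gene, taken from the lower abdominal muscle. All groups were passaged once, starved overnight without serum or phenol red, and given a pretreatment of fulvestrant or its solvent DMSO before E2 or its solvent ethanol was added for 1 h. The 4 treatments were vehicle (ethanol and DMSO), 10 nM E2, 10 nM E2 plus 100 nM fulvestrant, and 100 nM fulvestrant alone, with 3 libraries each. Peak lists hold no expression values, so the fibroblast label was not checked against markers. An input library was not analysed here. Whether the 3 libraries of a treatment came from separate animals or cultures was not stated in the sources used here, so the spread between them may be technical.

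Greb1, named for growth regulation by estrogen in breast cancer, is a classic target gene of ESR1, and its protein acts as a coactivator of that receptor. E2 (estradiol) is the main natural ligand of ESR1. The ligand-bound receptor sits on DNA as a dimer at the estrogen response element, a palindrome of a pair of short arms, or is tethered through other factors such as AP-1. Fulvestrant is an antagonist that competes with E2, impairs the receptor's activation functions and leads to its degradation. Primers at Greb1 also served the study as a positive control for the immunoprecipitation.

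Of the 12 libraries, 2 stood apart. E2 replicate 1 had a relative depth of 39.1% and fulvestrant replicate 2 of 75.8% of the median library, against 92.0% to 105.7% in the other 10, and their lists were the longest, with 104571 and 80754 peaks against 34293 to 68971. Relative depth was the lowest background in fragments recovered from the deposited fold and p-value in a library, divided by its shortest peak in bp. That length was taken in place of the fragment length, which was not known. At the Greb1 locus, 20 of the 54 sites had a peak in these libraries alone, and E2 replicate 1 had 9 of its 20 peaks in repeat-masked sequence, against 0 to 3 peaks in each of the other 11 libraries. Values are therefore given for all libraries and for the 10 without these.

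The estrogen response element was searched as GGTCANNNTGACC with at most 1 mismatch, wholly within 100 bp of a summit. It reads the same on both strands, as does the AP-1 motif below. The element was found at 5 of the 54 sites (9.26%), against 1.85% of all 228284 sites, and at 5 of the 14 window sites with a peak in at least 6 libraries (35.7%), against 6.07% of the 29321 such sites of the series. Around positions 2 kb from the same summits, at lower coordinates, the share was 1.85% in the window and 1.28% in the series. The sequences of the 3 element sites in the Greb1 gene body are printed because nearly all their summits fell beside the element. They are from the plus strand of mm10 (GRCm38), 150 bases each, with the element in capitals.
Site 20, chr12:16760462-16760611: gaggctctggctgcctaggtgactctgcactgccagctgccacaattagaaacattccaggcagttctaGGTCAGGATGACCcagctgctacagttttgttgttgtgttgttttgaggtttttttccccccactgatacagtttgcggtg
Site 22, chr12:16764838-16764987: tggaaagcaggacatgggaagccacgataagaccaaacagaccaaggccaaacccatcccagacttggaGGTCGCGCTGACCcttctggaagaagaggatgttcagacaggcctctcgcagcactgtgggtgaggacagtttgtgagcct
Site 25, chr12:16790541-16790690: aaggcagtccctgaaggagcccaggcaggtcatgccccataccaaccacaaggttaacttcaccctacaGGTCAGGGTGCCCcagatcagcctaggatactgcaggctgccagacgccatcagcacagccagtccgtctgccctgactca

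The element of site 20, at chr12:16760531-16760543, had no mismatch, and the 10 summits lay 2 to 54 bp from its centre. Site 22 carried its element at chr12:16764907-16764919 with the change A5G, and site 25 at chr12:16790610-16790622 with the change A11C. Positions are counted from 1 at the left end of the element on the plus strand, with the consensus base first. The other element sites lay beyond the gene. Site 39 held a perfect element, GGTCATGATGACC, at chr12:16848129-16848141, and the long site 47 (2530 bp) held a pair with 1 mismatch each, GGTCACTGTGAGC (C12G) at chr12:16869604-16869616 and GGTCAGTCTAACC (G10A) at chr12:16870006-16870018. At these sites most summits were not beside the element. A summit within 100 bp was seen in 1 library at site 39 (E2 replicate 3), in 4 libraries at the first element of site 47 (the 3 E2 plus fulvestrant libraries and fulvestrant replicate 1), and in 1 library at the second (vehicle replicate 1). An AP-1 motif, TGANTCA, lay within 100 bp of a summit at 11 of the 54 sites (20.4%), against 10.2% of all sites, and at 2 of the 5 element sites, 25 and 39. Around the positions 2 kb away the share was 18.5% in the window and 9.78% in the series, so the window's share was higher there too. Among sites in at least 6 libraries the AP-1 share was 7 of 14 in the window and 30.3% in the series, against 35.7% and 26.3% at the positions 2 kb away.

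The map of peaks by distance shows where the sites fell. Greb1 has a short form, Greb1-201, whose start is at 16757241, and a long form, Greb1-212, whose start is at 16800684. The gene body held 10 sites. Of these, 8 lay upstream of the Greb1-201 start, within or at the start of Greb1-212, and the 3 with a peak in at least 6 libraries were sites 20, 22 and 25, all in intron 1 of Greb1-212, at 3.29, 7.68 and 33.4 kb from the Greb1-201 start. The remaining stretch from the Greb1-201 start to the end of the gene held 2 sites, 18 and 19, with peaks in E2 replicate 1 and fulvestrant replicate 2 alone. On the side of Lpin1 (a phosphatidate phosphatase) and Ntsr2 (a neurotensin receptor) there were 17 sites, none with an element and 2 of them in at least 6 libraries. On the side of E2f6 (a transcriptional repressor of the E2F family) and Rock2 there were 27 sites, 9 of them in at least 6 libraries and 2 with an element. Of all 54 sites, 28 had a peak in 1 library, and 10 of those 28 were in E2 replicate 1.

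**Figure D1:**
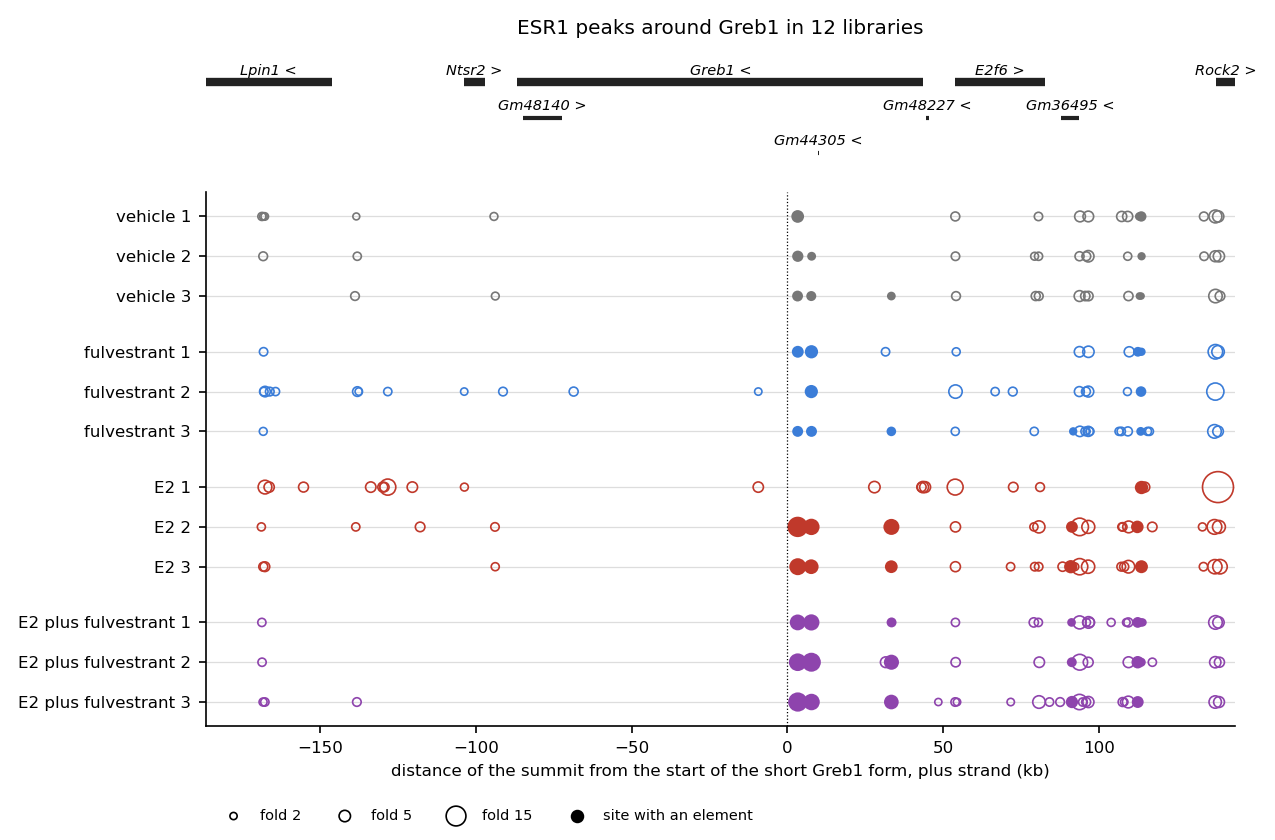
Positions of ESR1 peak summits in each of the 12 libraries (rows) as distance in kb from the start of the short form, Greb1-201, on the plus strand; circle area is proportional to the deposited fold over background, filled circles belong to sites with an element, and genes of the window are drawn above with their direction. The filled circles nearest 0, sites 20 and 22, are larger in E2 replicates 2 and 3 and the 3 E2 plus fulvestrant libraries than where E2 was not given, and E2 replicate 1 shows neither.

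The number of peaks in the window was 17, 15 and 16 in the vehicle libraries. It was 20, 21 and 22 with E2 and 20, 16 and 25 when fulvestrant was added to it. Fulvestrant alone gave 13, 21 and 20. The E2 libraries (21 ± 1, SD, n = 3) were all above the vehicle libraries (16 ± 1), and the other treatments, at 20.3 ± 4.51 and 18 ± 4.36, overlapped both. The lists also differed in length. Per 10000 peaks of the list, the E2 libraries held 2.85 ± 0.822 in the window and the vehicle libraries 3.91 ± 0.538, so the direction between them turned. The corresponding values were 3.34 ± 0.919 for fulvestrant alone and 3.94 ± 0.881 for E2 plus fulvestrant. Element sites were counted by a peak anywhere in the site, which at sites 39 and 47 was mostly not beside the element. All 5 had a peak in E2 replicates 2 and 3 and in each E2 plus fulvestrant library, against 2, 3 and 4 of them in the vehicle libraries, 3, 2 and 5 in the fulvestrant libraries, and 1 in E2 replicate 1. Sites 1, 30, 35, 41, 42, 46 and 54, which had no element within 100 bp of a summit, also had a peak in E2 replicates 2 and 3 and in each E2 plus fulvestrant library.

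The leading element site by its median rank was site 20 (chr12:16760253-16760831). The deposited fold was 6.23, 4.89 and 4.55 in the vehicle libraries. Replicates 1 and 3 of fulvestrant had 5.43 and 4.60. With E2 it was 16.03 and 11.06 in replicates 2 and 3, and with E2 plus fulvestrant 9.63, 11.99 and 14.2. E2 replicate 1 and fulvestrant replicate 2 had no peak there. All 5 libraries given E2 that had a peak were above all 5 libraries not given E2, and within each of these 2 sets the treatments overlapped. Mean folds were 5.22 ± 0.888 for vehicle (SD, n = 3) and 13.5 ± 3.52 for E2 (n = 2). They were 11.9 ± 2.29 for E2 plus fulvestrant (n = 3) and 5.01 ± 0.586 for fulvestrant alone (n = 2).

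On the log2 scale the mean fold at site 20 was 1.36 higher with E2 than with vehicle (SE 0.30, a ratio of 2.57) and 1.19 higher with E2 plus fulvestrant than with vehicle (SE 0.21, a ratio of 2.28). Between E2 and E2 plus fulvestrant the difference was 0.17 (SE 0.31), and between fulvestrant and vehicle it was -0.05 (SE 0.18), each smaller than its error. The fragments at the summit, recovered from fold and p-value, were 72 and 52 with E2 and 42, 51 and 59 with E2 plus fulvestrant. Vehicle gave 28, 22 and 19 fragments, and fulvestrant alone 25 and 21. Exact 95% Poisson intervals, which cover counting error only, ran from 18.6 to 40.5 fragments for vehicle replicate 1 and from 56.3 to 90.7 for E2 replicate 2. The nearest libraries across the divide, E2 plus fulvestrant replicate 1 (30.3 to 56.8) and vehicle replicate 1, had intervals that overlapped.

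The rank of site 20, by q-value with 1 as the strongest peak of a list, was 685 and 3297 for E2 and 1031, 817 and 739 for E2 plus fulvestrant. It was 4902, 5816 and 6805 for vehicle and 7457 and 9750 for fulvestrant alone. The 3 E2 plus fulvestrant libraries were close to each other, and E2 replicate 3, whose list was the longest of the 10 (68971 peaks), lay between them and the vehicle libraries. Ranks depend on list length and on what else is in the list, and with the rank taken as a percent of the list, the E2 libraries stood at 1.12 and 4.78% and those of E2 plus fulvestrant at 2.52, 1.61 and 1.12%. The vehicle libraries stood at 9.57, 17.0 and 17.1% and the fulvestrant libraries at 17.5 and 21.3%.

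Site 22 (chr12:16764625-16765287) had no peak in vehicle replicate 1 and folds of 3.04 and 3.87 in the other vehicle libraries. Fulvestrant alone gave 6.76, 6.72 and 4.62, E2 gave 10.3 and 8.34 in replicates 2 and 3 and no peak in replicate 1, and E2 plus fulvestrant gave 10.1, 13.8 and 10.5. Here the fulvestrant libraries were all above the vehicle libraries, by 0.79 on the log2 scale (SE 0.25, with 2 vehicle libraries), and below all E2 and E2 plus fulvestrant libraries with a peak. The rank was 863, 562 and 1389 with E2 plus fulvestrant and 2746 and 7071 with E2, which did not overlap, whereas the folds of these treatments did. The site's element carried 1 mismatch in its left arm. The summits lay 2224 to 2354 bp downstream of the start of the microRNA gene Gm44305 inside the same intron.

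Site 25 (chr12:16790380-16790832) had a peak in 1 vehicle library (replicate 3, fold 2.96) and 1 fulvestrant library (replicate 3, fold 3.55). With E2 the fold was 9.88 and 6.26 in replicates 2 and 3, and with E2 plus fulvestrant 3.81, 8.76 and 8.29. Every library with E2 that had a peak was above both libraries without it, but E2 plus fulvestrant replicate 1 exceeded the fulvestrant library by less than the spread within its own treatment (SD 2.73). The ranks were 3137 and 13229 for E2 and 16113, 2192 and 3493 for E2 plus fulvestrant. The single vehicle peak ranked 25167 and the single fulvestrant peak 19721.

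Beyond the gene, site 39 (chr12:16847876-16848993) had no peak in any vehicle library and a fold of 2.71 in fulvestrant replicate 3. It had folds of 5.36 and 6.80 in E2 replicates 2 and 3 and of 2.90, 3.77 and 5.80 with E2 plus fulvestrant. Site 47 (chr12:16868972-16871501) had a peak in all 12 libraries. Its best-ranked peak had folds of 4.16, 2.66 and 2.30 with vehicle and of 3.68, 4.33 and 3.02 with fulvestrant alone. The folds were 6.86, 6.08 and 6.45 with E2, above all other libraries, and 4.47, 5.98 and 5.45 when fulvestrant was added. No other element site had a peak in E2 replicate 1. These best-ranked peaks lay at different places, with summits spread over 1358 bp. The summits of all 3 E2 plus fulvestrant libraries, of E2 replicate 2 and of fulvestrant replicate 1 were at 16869508 to 16869683, where the vehicle libraries had none. Between 16870592 and 16870866, the fold was 6.86 and 6.45 in E2 replicates 1 and 3, 2.77 and 3.21 in E2 plus fulvestrant replicates 1 and 2, and 4.16, 2.66 and 2.19 with vehicle. Fulvestrant alone gave 2.67, 4.33 and 3.02 in this stretch and overlapped with vehicle. There E2 plus fulvestrant overlapped with vehicle, and differences of the best-ranked folds at site 47 do not compare the same summit. The summits of site 39 were spread over 791 bp and those of site 46 over 574 bp.

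**Figure D2:**
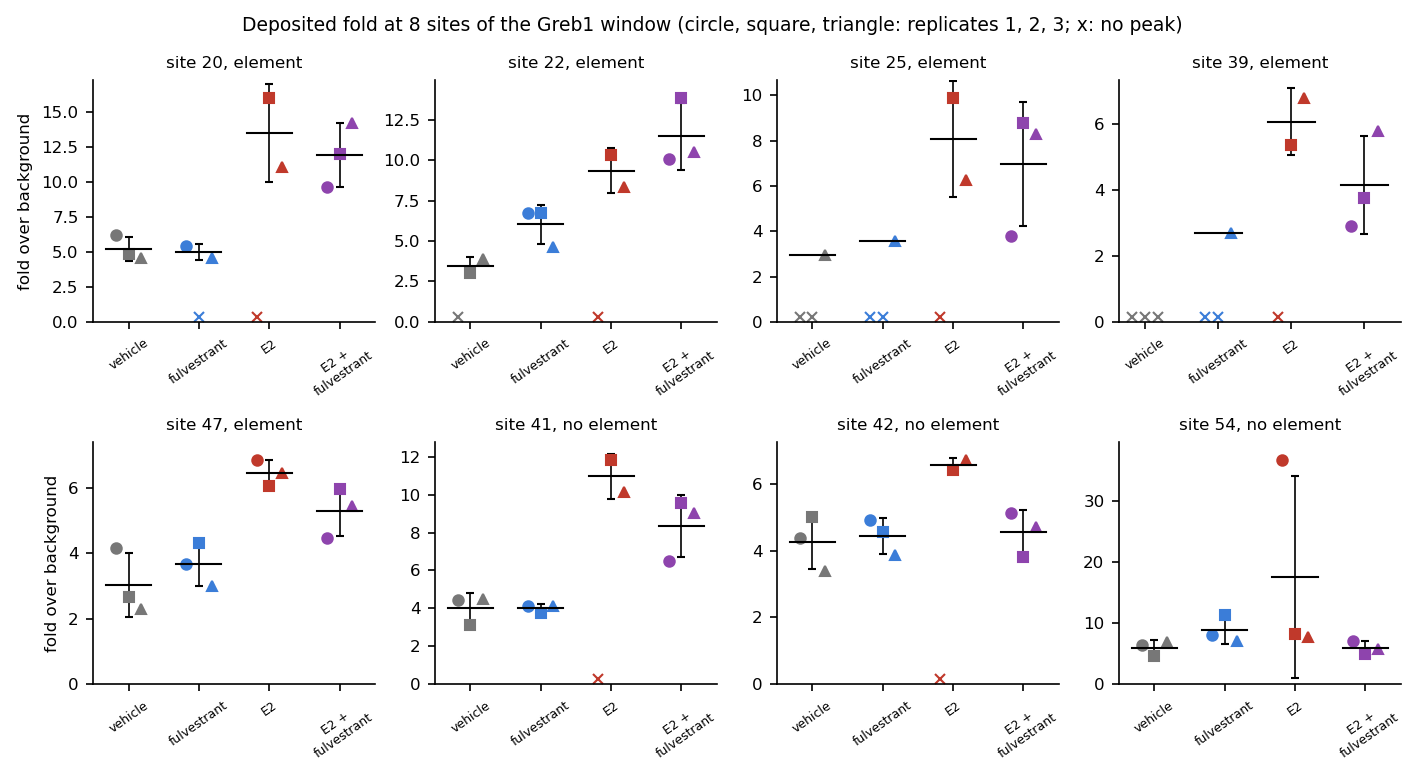
Deposited fold over background (y, starting at 0) of the best-ranked peak per library at 8 sites, by treatment (x); symbols are replicates 1 to 3, lines are means over libraries with a peak, bars are SD, and a cross marks a library without a peak. At site 20 the E2 and E2 plus fulvestrant libraries with a peak lie between 9.63 and 16.03 and the vehicle and fulvestrant libraries with a peak between 4.55 and 6.23.

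The recurrent sites without an element differed among themselves. Site 41 (chr12:16850078-16852229), whose best-ranked summits were 20 to 239 bp upstream of the start of the long noncoding RNA Gm36495, was higher with E2 as the element sites were. Its fold was 11.8 and 10.1 in E2 replicates 2 and 3 and 6.50, 9.55 and 9.02 with E2 plus fulvestrant. Vehicle gave 4.43, 3.12 and 4.50 and fulvestrant alone 4.14, 3.76 and 4.11. E2 libraries with a peak were above all E2 plus fulvestrant libraries, by 0.41 on the log2 scale (SE 0.21), and these were above every library not given E2. For E2 minus E2 plus fulvestrant, the median over the 12029 sites with a peak in each of the 10 libraries was 0.37. A larger difference than at site 41 was seen at 43.4% of them. The summit fragments were 102 and 92 with E2 and 31 to 39 with vehicle. The nearest thing to an element there was GGGCCACGTGACC, with 2 mismatches (T3G and A5C), a median of 46 bp from the summits, and an AP-1 motif lay within 100 bp of a summit.

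Site 42 (chr12:16852584-16854727), 2835 to 2962 bp upstream of the same start, had folds of 4.37, 5.01 and 3.39 with vehicle and of 4.91, 4.56 and 3.86 with fulvestrant alone, and these overlapped with the 5.14, 3.80 and 4.70 of E2 plus fulvestrant. E2 replicates 2 and 3, at 6.42 and 6.72, were above them. E2 minus vehicle was 0.64 on the log2 scale at site 42, and 33.8% of the same 12029 sites had a larger value. For E2 minus E2 plus fulvestrant it was 0.54, with larger values at 24.0%. Site 46 (chr12:16865754-16867387) ranged from 2.37 to 3.92 in the vehicle and fulvestrant libraries, was 5.29 and 6.07 in E2 replicates 2 and 3, and ranged from 3.04 to 5.26 with E2 plus fulvestrant. Sites 41, 42 and 46 had no peak in E2 replicate 1.

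The sites at the promoters of E2f6 and Rock2 had a peak in all 12 libraries, whereas those near starts of Lpin1 and Ntsr2 had a peak in 1 to 10. At site 30, with summits 75 to 412 bp downstream of the E2f6 start, the fold was 2.44 to 3.93 in the 10 libraries, and 9.68 in E2 replicate 1 and 6.86 in fulvestrant replicate 2. At site 54 the best-ranked summits lay 310 to 641 bp upstream of the Rock2 start in 11 libraries and 493 bp downstream of it in E2 replicate 1. The fold was 36.8, 8.28 and 7.82 with E2 and 8.11, 11.3 and 7.05 with fulvestrant alone. Vehicle gave 6.39, 4.61 and 6.94, and E2 plus fulvestrant 7.08, 4.88 and 5.86. The values of 36.8 and 11.3 were those of the libraries that stood apart, and the former belongs to the downstream summit. Over the 10 libraries the difference between E2 and vehicle was 0.41 at site 30 and 0.45 at site 54 on the log2 scale, below the median of all sites. The remaining recurrent sites, 1, 6, 34 and 35, had folds between 1.82 and 6.06. Site 35 had a peak in every library but those of fulvestrant alone, with a fold of 2.57 to 2.92 in the vehicle libraries. Its vehicle peaks were weak, with a −log10 q-value of 1.54 to 2.19. A median of 59.7% of the bases around its summits were repeat-masked, above the cutoff of 50%. The 40 sites seen in 1 to 5 libraries held 63 peaks with a median fold of 2.80 (range 1.96 to 9.96).

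**Figure D3:**
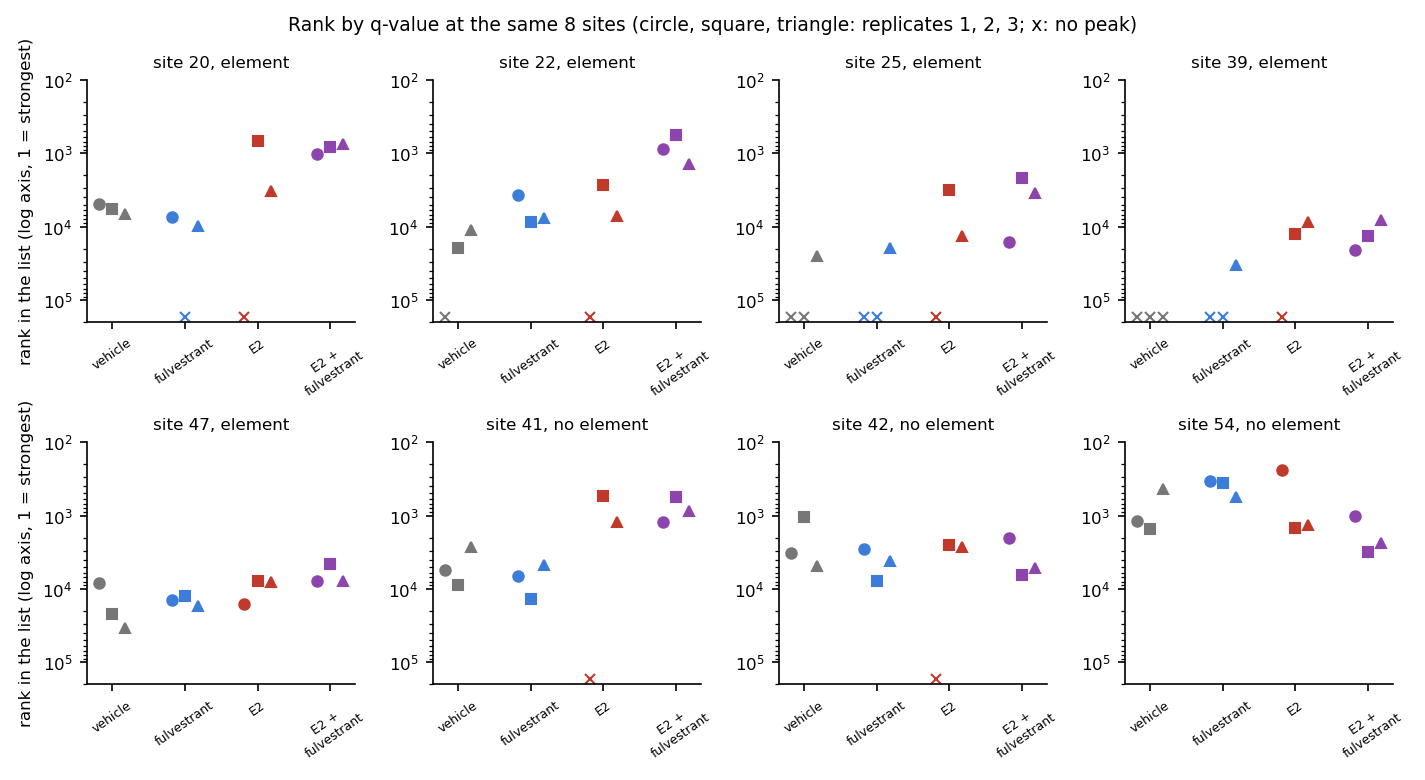
Rank of the best-ranked peak by q-value (y, log axis, 1 is the strongest of the list) at the same 8 sites by treatment (x); symbols are replicates 1 to 3 and a cross marks a library without a peak. At site 22 the E2 plus fulvestrant libraries rank from 562 to 1389, ahead of all other libraries, and at site 54 all 3 fulvestrant libraries rank within 338 to 556.

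Calls by rank were made where every library of a treatment ranked a site ahead of every library of the other, a library without a peak counting as last. These are the comparisons by which the locus was followed, so nothing is read from the counts. With all 12 libraries, E2 over vehicle called 0 of 54 sites (0.581% of all sites of the series) and vehicle over E2 called 0 (0.687%). Without E2 replicate 1 the first count was 7 (sites 20, 22, 25, 39, 41, 46 and 47; 5.74% of all sites) and the second stayed at 0 (1.12%). E2 plus fulvestrant over vehicle called 6 sites (20, 22, 25, 39, 41 and 47; 1.78% of all sites), 5 of them with an element, and vehicle over E2 plus fulvestrant called site 30 alone (0.910% of all sites). E2 plus fulvestrant over E2 called site 22 (0.734% of all sites) and E2 over E2 plus fulvestrant called none (0.653%) with 12 libraries. Without E2 replicate 1 the latter called site 16 (3.73% of all sites), a site with a peak in 3 libraries, and the former still site 22 (0.891%). Fulvestrant over vehicle called site 22 (0.681% of all sites), and vehicle over fulvestrant called sites 20 and 35 (0.575%). Without fulvestrant replicate 2 the former still called site 22 (1.78%) and the latter sites 6, 20, 30 and 35 (0.885%).

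Taking both treatments with E2 against both without it, 0 of 54 sites were called with 12 libraries (0.0188% of all sites) and 5 with 10 libraries (sites 20, 25, 39, 41 and 47; 0.796% of all sites), and none in the other direction (0.0447% and 0.153%). Among the 12029 sites of the series with a peak in each of the 10 libraries, 5.33% were called in the first direction, and among the 874 of these with an element 24.8%.

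Those 12029 sites give the scale of the shift between treatments as a whole. The median of their log2 fold differences was 0.52 for E2 minus vehicle, 0.37 for E2 minus E2 plus fulvestrant, 0.12 for fulvestrant minus vehicle and 0.14 for E2 plus fulvestrant minus vehicle. In the window 7 sites qualified, 2 of them with an element. Relative to the median of all sites, E2 against vehicle was 0.85 at site 20, 0.95 at site 41 and 0.57 at site 47, and E2 plus fulvestrant against vehicle was 1.05, 0.91 and 0.70, the values of site 47 being those of summits at different places. Values larger than that of site 20 were seen at 4.90% of all sites and 27.5% of element sites for E2 against vehicle, and at 2.87% and 19.3% for E2 plus fulvestrant against vehicle. Between E2 and E2 plus fulvestrant, site 20 was at -0.20 relative to the median of all sites, and 78.4% of sites had a larger difference. These comparisons share the vehicle or the E2 libraries, so their values stand side by side and were not related to each other. The median over the 7 window sites was 0.85 for E2 against vehicle and 0.40 for E2 plus fulvestrant against vehicle.

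**Figure D4:**
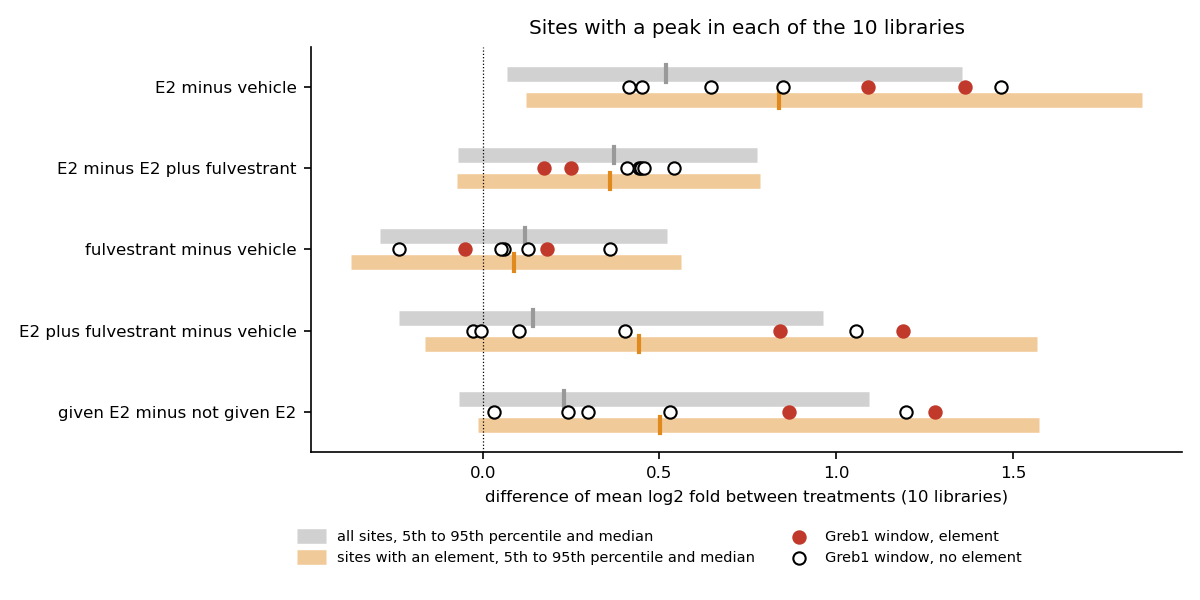
Difference of mean log2 fold between treatments (x) for 5 comparisons (rows), over the 10 libraries and sites with a peak in each of them; bars span the 5th to 95th percentile and ticks mark the median for all 12029 sites (grey) and the 874 sites with an element (orange), and circles are the 7 sites of the Greb1 window. In E2 plus fulvestrant minus vehicle, sites 20 and 47 (filled) and site 41 stand at 0.84 to 1.19, and the other 4 sites of the window at -0.03 to 0.40.

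Set against other genes, the Greb1 window held 54 sites where the median of 21938 protein-coding genes with the same flanks was 28. Per 100 kb it held 16.4 sites (median 11.6), which 30.8% of genes reached. It held 5 sites with an element (median 0), which 102 genes (0.465%) reached. The Greb1 window of 330.3 kb is longer than most, and windows of neighbouring genes share sites.

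Of 15 other genes often named as estrogen targets, 8 had at least 1 element site in their window, and Tff1, Xbp1, Myc, Cxcl12, Areg, Foxa1 and Gata3 had none. Their best-ranked element site was ranked ahead in every E2 and E2 plus fulvestrant library of the 10 for 3 of the 8. At Pgr, the progesterone receptor gene, the fold was 29.6 to 43.5 in the 5 libraries with E2 and 12.8 to 19.3 in the 5 without. At Esr1, the gene of the receptor itself, it was 18.6 to 30.4 and 8.16 to 11.4. At Ccn5, a matricellular gene also known as Wisp2, it was 2.74 to 6.00 with E2, and no library without E2 had a peak. For Nrip1, a nuclear receptor corepressor gene, the ranges of 14.8 to 34.04 and 10.8 to 15.3 overlapped, as did those of Ctsd, Ccnd1, Igfbp4 and Rara in rank. Igfbp4 and Rara share their best site. Counted by gene over the 10 libraries, 7 of these genes' 16 element sites were ranked ahead with E2 and 0 behind. At Greb1 it was 4 of 5 and 0, with site 47 at different summits, and no window site was called with all 12 libraries. The share was 11.1% of all 4227 element sites and 24.8% of the 874 with a peak in each of the 10 libraries. The 10 libraries were chosen after seeing the data, and Greb1 was followed by these ranks, so nothing is read from the contrast. The site at Greb1 had a lower fold than those at Pgr and Esr1 in each set of libraries.

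**Figure D5:**
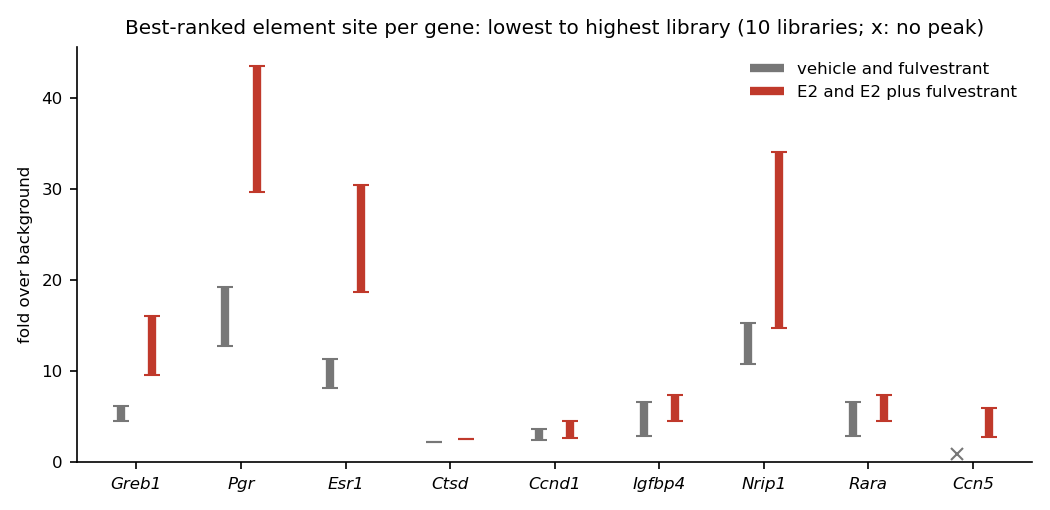
Fold over background (y) at the best-ranked element site of Greb1 and the 8 other estrogen target genes with such a site, drawn from the lowest to the highest library of the 10 that have a peak, for vehicle and fulvestrant (grey) and for E2 and E2 plus fulvestrant (red); a cross marks no peak. The ranges are apart at Greb1, Pgr and Esr1, Ctsd has 1 library in each set, and Ccn5 has peaks in the red set alone.

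The sites elsewhere whose ranks over the 12 libraries were most like those of site 20 were nearest to the starts of Mctp2, Lgsn, Smim4, A930002H24Rik and E2f7, with mean absolute differences of 0.38 to 0.43 in log2 rank. They lay 27396 to 188535 bp from those starts, 3 of the 5 had an element, and none had a peak in E2 replicate 1. Site 20 had no peak in that library either, and the choice by rank over the 12 libraries favoured such sites.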

How the data were processed

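ESR1 ChIP-seq was performed on 12 libraries of mouse fibroblasts, 3 per treatment, single-end. Per the labels and the study's methods, reads were trimmed (Trimmomatic 0.39), aligned to mm10 with Bowtie2, freed of duplicates (Picard 2.21.4) and of mitochondrial and unplaced reads, and peaks were called in each library on its own with MACS2, with all remaining reads kept. Whether the input served as control, and whether blacklisted peaks were removed before deposit, was not given in the sources used here. The deposited lists give an integer score, the summit's fold enrichment as a ratio of pileup over background, and the −log10 p-value and −log10 q-value of each peak, computed by the authors' peak caller. The smallest −log10 p-value was 2.00 to 2.04, and 5.64 to 26.1% of the deposited peaks had a q-value above 0.05. The study's own counts over consensus peaks and its batch correction could not be repeated on peak lists, and the labels name no batch.

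Here, peaks overlapping by at least 1 bp across the lists were joined into sites, the best-ranked peak stood for each library, and ranks were taken from the −log10 q-value. Fragments k and background b at a summit were solved from fold = (k + 1)/(b + 1) and the Poisson p-value where the −log10 p-value was at most 100. In each library 99.99 to 100.0% of solved counts were whole within 0.02. Elements, AP-1 motifs and repeat masking (over 50% of bases within 100 bp of a summit) were read from GRCm38, the genome of the mm10 build. Promoters lay within 3 kb of a GENCODE vM21 transcript start. Python 3.11.15 with numpy 2.4.6, pandas 2.3.3, scipy 1.17.1 and pysam 0.24.0 was used, and the scripts were tested on simulated data. The locus, the gene lists and the comparisons were chosen with earlier results of these data known. Named were Greb1, protein-coding genes with a start in the window, all sites (in full those with an element or a peak in at least 6 libraries), 15 estrogen target genes, and the 5 sites elsewhere nearest to site 20 by mean absolute log2 rank difference. No test was applied at the locus. Alternatives covered thresholds, merging, window, motif, masking, ranking, each library left out and the replicate number as a block. The call counts under 10 libraries, under each library left out and under ranks by fold were alternatives chosen after seeing the data.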

Additional observations from a re-analysis of the deposited data

Results flagged for a closer look

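At site 54, the Rock2 promoter, libraries with fulvestrant lay on opposite sides of those without it depending on E2. The mean log2 fold of the 3 E2 plus fulvestrant libraries minus that of the 3 E2 libraries was -1.19 (SE 0.75), with every library below every E2 library, and that of fulvestrant minus vehicle was 0.55 (SE 0.27), with every library above every vehicle library. The first value rests on E2 replicate 1, whose fold of 36.8 belongs to a summit 493 bp downstream of the Rock2 start. The best-ranked summits of the other 11 libraries lay upstream of it. All of these but fulvestrant replicate 2 also had a lower-ranked peak with a summit downstream of the start. There vehicle gave folds of 4.81, 4.88 and 3.52, and fulvestrant replicates 1 and 3 gave 5.97 and 4.29, which overlapped. E2 replicates 2 and 3 gave 6.37 and 8.03, and E2 plus fulvestrant 4.92, 3.88 and 4.51. Over the 10 libraries, E2 minus E2 plus fulvestrant was 0.46 and fulvestrant minus vehicle 0.36. The medians of the 12029 sites went the same way, at 0.37 and 0.12, and 36.1% and 15.7% of these sites had larger values than site 54. The difference between these effects was not tested.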

How the results depend on the processing

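At the leading element site, site 20, the log2 fold differences moved by less than 1 SD between replicates under each of the 85 alternatives run. Many of these could not move a difference. Such were leaving out a library of another treatment, or E2 replicate 1 or fulvestrant replicate 2, which had no peak there. Taking the highest peak within 250 bp of the leading summit chose the same peaks. E2 minus vehicle (1.10 to 1.63 with each library left out), E2 plus fulvestrant minus vehicle (1.06 to 1.34) and given E2 minus not given E2 (1.19 to 1.37) kept their sign. E2 minus E2 plus fulvestrant ran from -0.09 to 0.44 and fulvestrant minus vehicle from -0.17 to 0.08. Whether the replicate numbers pair the libraries could not be settled. Correlations of same-numbered deviations ran from -0.55 to 0.41 over 7816 sites (median 0.03), and of different-numbered ones from -0.54 to 0.64 (median -0.01). Those of replicate 3 were all positive (0.03 to 0.41), and the lowest, -0.55, involved fulvestrant replicate 2, which stood apart. With the replicate number as a block the differences at site 20 were 1.50, 0.03, -0.09, 1.19 and 1.36, in the order E2 minus vehicle, E2 minus E2 plus fulvestrant, fulvestrant minus vehicle, E2 plus fulvestrant minus vehicle, and given E2 minus not given E2. In log2 rank the block gave -2.07, 0.95, 0.56, -2.76 and -2.68, and in peaks per library 5, 0.667, 2, 4.33 and 3.67, the last being the unblocked values.

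The log2 rank differences were -1.95, 0.82, 0.56, -2.76 and -2.66 in the same order. Ranks by fold gave 0.81 for fulvestrant minus vehicle and -2.39 for E2 plus fulvestrant minus vehicle, and the percent of the list gave -3.09 for the latter. Leaving out 1 library gave ranges of -3.08 to -0.81, -0.32 to 1.95, 0.37 to 0.75, -2.90 to -2.64 and -3.06 to -2.50, and for E2 the extremes came without E2 replicate 3 and without E2 replicate 2.

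The 54 sites and 226 peaks became 14 and 77 at a −log10 q-value of at least 10 and 34 and 107 within 50 kb of the gene, and there were 35 sites with the 10 libraries. Leaving out 1 library gave 44 to 54 sites and 201 to 213 peaks, and 4 or 5 element sites. Elements were at 2 sites with no mismatch and at 14 with up to 2. With the whole merged site searched there were 6, the added one being site 54 at the Rock2 promoter. Peaks per library differed between E2 and vehicle by 5, by 6.67 at a q-value of at most 0.05 or a −log10 q-value of at least 10, and by 2.67 without repeat-masked peaks. Scaled to the median list length, the differences were -5.39, -5.54, -2.87, 0.154 and -1.18 in the order above, so all but E2 plus fulvestrant minus vehicle turned. Leaving out 1 library gave 4.5 to 5.5, -1.5 to 3, 0.5 to 4.5, 2 to 6.5 and 2.8 to 4.6.

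The 10 libraries, chosen after seeing the data, changed the window sites called by rank from 0 to 7 (E2 over vehicle), 0 to 1 (E2 over E2 plus fulvestrant), 2 to 4 (vehicle over fulvestrant) and 0 to 5 (both with E2 over both without). By fold ranks, vehicle over E2 plus fulvestrant gave 0. Leaving out 1 library gave 0 to 7 sites for E2 over vehicle (7 without E2 replicate 1, 1 without vehicle replicate 1 or E2 replicate 2), 0 to 2 for vehicle over E2, 0 to 1 for E2 over E2 plus fulvestrant, 1 to 4 for E2 plus fulvestrant over E2 (4 without E2 replicate 2), 1 to 2 for fulvestrant over vehicle, 2 to 4 for vehicle over fulvestrant, 1 to 3 for vehicle over E2 plus fulvestrant and 0 to 5 for both with E2 over both without. The cause of these changes was not tested. E2 replicate 1, at 39.1% of the median depth and with the longest list, had no peak at 4 of the 5 element sites, and the part of depth in this was not tested.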
